A study of Mus musculus with 14 samples.

Results

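The platelet-derived growth factor (PDGF) genes described here are 3 ligands, Pdgfa, Pdgfb and Pdgfc, and the 2 receptors, Pdgfra and Pdgfrb. They were chosen by gene symbol, as 5 of the 23174 rows of the deposited expression table, and each symbol matched 1 row. Expression was measured by polyA RNA-seq in mouse cells, 14 libraries in all. Embryonic stem cells (ESCs) of 4 lines, all of strain 129S1/SVImJ, were put through a chemical protocol for conversion into extraembryonic endoderm (XEN) cells. XEN cells stand for the cells that line the yolk sac cavity. Not all lines reached a XEN-like state, as the markers given below show.

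WT3 is wild type. KO3.34 and KO2.6 are Zfp281 knockout lines (Zfp281KO). Rescue3.34 is line KO3.34 with Zfp281 restored (Zfp281KO+Zfp281 Rescue). The second knockout line carries the number 2.6 in its titles and another number in its cell line field, and the title is followed. WT3 and Rescue3.34 are called the Zfp281-present lines. Each line gave 1 library at each of 3 stages. ESCs grew in serum and LIF without feeders. At cXENp1 (passage 1) the cells had spent 48 h in XEN medium with 0.01 µM retinoic acid and 10 ng/mL activin A. At cXENp3 (passage 3) they had been through a passage on fibroblast feeders and were back on gelatin. XENB1 (strain 129S1) and XEN5 (129S1/SVImJ) are wild-type XEN lines kept in fibroblast-conditioned medium, 1 library each. A group is therefore 2 lines, Rescue3.34 descends from KO3.34, and the p-values measure only the spread between these few lines.

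PDGF ligands are secreted dimers that bind a pair of receptor tyrosine kinases, PDGFRα and PDGFRβ, and make them dimerise and signal through the RAS, PI3 kinase and phospholipase C pathways. PDGF-A and PDGF-C chains act through PDGFRα, and PDGF-B binds both receptors. PDGF-C is secreted in a latent form that a protease, such as tissue plasminogen activator, must cut. In the blastocyst Pdgfra marks the primitive endoderm, the tissue XEN lines come from, while Pdgfa is made by the pluripotent epiblast. Pdgfrb is best known from pericytes, smooth muscle and fibroblasts.

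The members lie at separate loci except that Pdgfa and Pdgfra share a chromosome. In the table's mm9 coordinates, Pdgfa (XLOC_016243) spans chr5:139452929-139470907 and Pdgfra (XLOC_015248) spans chr5:75548316-75594229. Pdgfb (XLOC_007201) spans chr15:79826306-79845238 and Pdgfc (XLOC_012703) chr3:80840338-81017953. RefSeq promoter windows of build GRCm38.p6 matched 3 of the 5 members, namely Pdgfa (at 2 starts), Pdgfc and Pdgfra. The windows of Pdgfra and Pdgfc are shown because they are the members that differed between KO and Zfp281-present lines at cXENp3. Each covers the 250 bases before the start, on the plus strand, at chr5:75152001-75152250 for Pdgfra and chr3:81036166-81036415 for Pdgfc. The bases just after the listed start were searched for in the first part of the GENCODE transcripts of the gene. They were found for Pdgfc and both Pdgfa starts but not for Pdgfra. A match anywhere in that part counted, so it does not show that a transcript begins there. Capitals mark runs of at least 5 G or 5 C.
Pdgfra promoter: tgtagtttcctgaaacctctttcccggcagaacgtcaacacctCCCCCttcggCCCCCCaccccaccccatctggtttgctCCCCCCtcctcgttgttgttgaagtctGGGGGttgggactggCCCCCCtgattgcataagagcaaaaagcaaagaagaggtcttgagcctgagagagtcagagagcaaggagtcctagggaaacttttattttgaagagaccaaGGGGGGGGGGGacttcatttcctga
Pdgfc promoter: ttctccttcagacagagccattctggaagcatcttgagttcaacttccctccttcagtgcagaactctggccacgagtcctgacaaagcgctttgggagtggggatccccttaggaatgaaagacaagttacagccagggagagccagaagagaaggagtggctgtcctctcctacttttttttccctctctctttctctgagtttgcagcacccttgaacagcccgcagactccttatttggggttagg
The GC content is 54.4% for Pdgfra and 50.8% for Pdgfc. GGGGG matches the Pdgfra window at 15 overlapping positions counted over both strands. GGGGG matches the window of Pdgfa start 1 at 5 positions, that of start 2 at 2, and that of Pdgfc at 0. Of all 32851 windows, 47.2% hold GGGGG, so its presence is common. The GATA motifs AGATAA or AGATAG or TGATAA or TGATAG, searched on both strands, are in none of the 4 windows, and 26.5% of all windows hold at least 1 of them. GGGGAGGG, which does not contain GGGGG and was also searched on both strands, is likewise in none of the 4, against 9.7% of all windows. These matches describe letters only.

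The values are FPKM, which correct fragment numbers for gene length and for the size of the library, and whose sums ran from 424406 to 718138 per library. They are scaled to length, so levels can be set against each other between genes. Depth is unknown. Zfp281 was at 25.1 to 38.6 FPKM in the libraries of WT3 and Rescue3.34, and at 0 to 4.0 in those of both knockout lines. A set of 14 XEN and primitive endoderm markers summed to 3031 and 4362 FPKM in the KO cXENp3 libraries and to 2920 and 4376 in the XEN lines. The same sum was 186 and 237 in the Zfp281-present libraries labelled cXENp3, where the pluripotency factor Pou5f1 stood at 1313 and 685 FPKM and Gata4 at 1.11 and 0.23. These markers therefore go against the XEN label of the Zfp281-present cXENp3 libraries. The sums lean on single genes. Lamb1 alone gave 1987 and 2933 FPKM in KO cXENp3 and 1768 and 2386 in the XEN lines. Lamc1 was listed at 0 in those libraries, against 109 and 103 FPKM in Zfp281-present cXENp3. The KO2.6 ESC library stood apart from the other ESC libraries, with 12 of the 14 markers at 1 FPKM or more against 3 or 4, Gata6 at 10.5 FPKM and Sox17 at 4.59. Its sample description also has another prefix than those of the other ESC libraries, so line and prefix cannot be told apart for it. The Rescue3.34 cXENp3 library stood apart in part of the fibroblast genes, as given beside Pdgfrb. Called changes of the members are given with and without the library they rest on, and so are the counts of the pathway lists.

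Pdgfra, the receptor of the PDGF-A and PDGF-C chains, covered the widest range of the 5 genes. As ESCs, KO2.6 had 3.42 FPKM, KO3.34 0.573, Rescue3.34 0.0562 and WT3 0.0467. At cXENp1, KO2.6 had 14.8 FPKM, KO3.34 1.68, Rescue3.34 0.740 and WT3 2.77. At cXENp3, KO2.6 reached 97.7 FPKM and KO3.34 71.7, whereas Rescue3.34 had 1.23 and WT3 0.284. Both KO libraries were thus above both Zfp281-present ones at ESC and at cXENp3, while at cXENp1 KO3.34 lay between the 2 Zfp281-present lines. Only the difference at cXENp3 was called, as given below. How many of all genes separate by group in this way was not counted, for this or any other member. XENB1 had 64.6 FPKM and XEN5 had 114, a range that holds both KO cXENp3 values. Among genes listed above 0 in the same library, Pdgfra ranked at percentile 5.8 in WT3 ESCs and at 91.5 and 94.3 in the KO cXENp3 libraries.

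**Figure D1:**
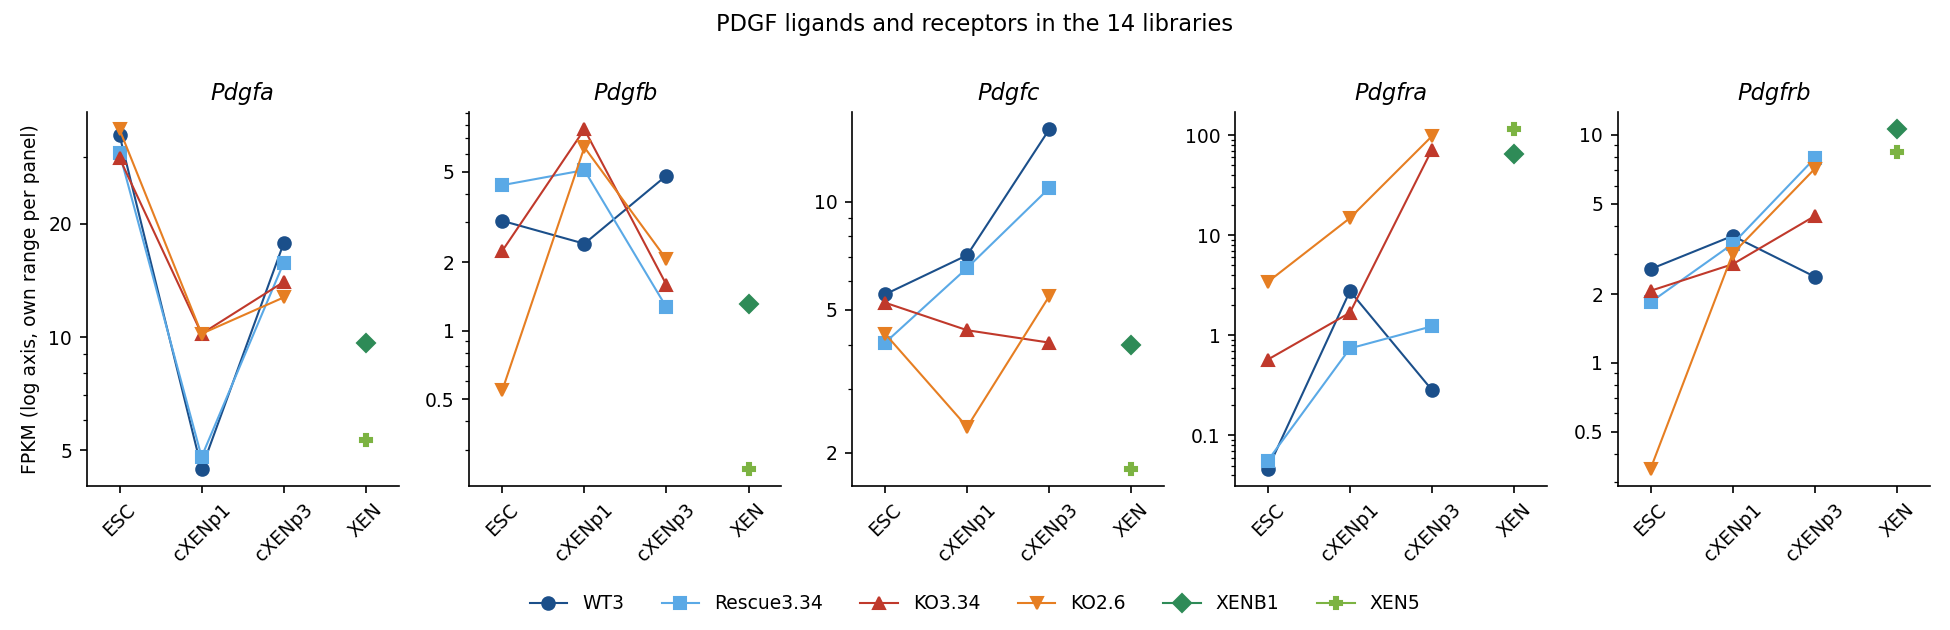
FPKM of each PDGF gene (log vertical axis, own range in each panel) in the 14 libraries by stage. Each marker is 1 library and lines join the libraries of 1 cell line. Pdgfra ends at 71.7 and 97.7 in the KO lines against 0.284 and 1.23 in the Zfp281-present lines, and Pdgfa dips at cXENp1 in all 4 lines.

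Pdgfra was higher in XEN lines than in ESCs by 5.71 ± 0.60 (SE) on the log2(FPKM + 1) scale used for every change below (adjusted p = 0.00029). In that comparison 3 of the 5 members were called at an adjusted p under 0.05, against 41.9% of all genes tested. Without the KO2.6 ESC library the Pdgfra difference was 6.18 (adjusted p = 2.44e-05). In bulk RNA, fewer cells of a type and less RNA per cell cannot be told apart.

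In the KO lines Pdgfra rose from ESC to cXENp3 by 5.01 ± 0.55 (SE, adjusted p = 0.000485), with 3 of 5 members called beside 48.3% of all genes. Leaving out the KO2.6 ESC library gave 5.00 (adjusted p = 0.00584). In FPKM the level went up 28.6-fold in KO2.6 and 125-fold in KO3.34. The same FPKM fold was 6.08 in WT3 and 21.9 in Rescue3.34. These 2 lines started from 0.0467 and 0.0562 FPKM, levels at which adding 1 before the log2 flattens a fold. The step from cXENp1 to cXENp3 in the KO lines was 3.70 ± 0.55 (SE, adjusted p = 0.00321), with 1 of 5 members called beside 22.5% of genes. It was 6.59-fold in KO2.6 and 42.6-fold in KO3.34, and without KO3.34 it came to 2.64 (adjusted p = 0.0538). KO2.6 had the higher level of the pair at all 3 stages. The stage comparisons within a set of lines share libraries, so they are not independent of one another.

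In the Zfp281-present lines the change of Pdgfra from ESC to cXENp3 was 0.69 (95% interval -0.57 to 1.94, adjusted p = 0.531), and 0.01 (adjusted p = 1) without the Rescue3.34 cXENp3 library. Of the 5 members, 0 were called in that comparison, where limma called 1.14% of genes and 2527 had an unadjusted p under 0.05. From cXENp1 to cXENp3 the change was -0.60 (95% interval -1.85 to 0.66, adjusted p = 0.495), with 1 member called beside 10.5% of genes. WT3 went from 2.77 to 0.284 FPKM over that step while Rescue3.34 went from 0.740 to 1.23, so the pair moved in opposite directions, and without the Rescue3.34 cXENp3 library the change was -1.27 (adjusted p = 0.248). Over all 4 lines the change from ESC to cXENp1 was 1.30 ± 0.88 (SE, adjusted p = 0.291), where 28.5% of genes and 1 of 5 members were called. All 4 lines were higher at cXENp1 than as ESCs.

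At cXENp3 Pdgfra was 5.65 ± 0.76 (SE) higher in KO than in Zfp281-present lines (adjusted p = 0.000647). Group means were 84.7 ± 18.4 FPKM (SD, n = 2) and 0.757 ± 0.670 FPKM (SD, n = 2). At this stage 41.9% of genes and 2 of 5 members were called. Without the Rescue3.34 cXENp3 library the difference was 6.04 (adjusted p = 0.00221). In ESCs it was 1.33 ± 0.76 (SE, adjusted p = 0.358), with 1.97% of genes and 0 members called and 2762 genes at an unadjusted p under 0.05. At cXENp1 it was 1.35 ± 0.76 (SE, adjusted p = 0.571), with 0.485% of genes and 0 members called and 1486 genes at an unadjusted p under 0.05. Both differences depended on which KO line was kept. Without KO3.34 they were 2.07 (adjusted p = 0.0421) and 2.63 (adjusted p = 0.0407), and without KO2.6 they were 0.58 (adjusted p = 0.58) and 0.07 (adjusted p = 1).

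The difference between the changes of KO and Zfp281-present lines was tested as an interaction of Zfp281 status with stage. From ESC to cXENp3 it was 4.32 ± 1.08 (SE) for Pdgfra (adjusted p = 0.0217), with 22.6% of genes and 1 of 5 members called. It was 4.72 (adjusted p = 0.0288) without the Rescue3.34 cXENp3 library and 5.06 (adjusted p = 0.0226) without the KO2.6 ESC library. Without the whole WT3 line it was 3.93 (adjusted p = 0.215), and without the whole Rescue3.34 line 4.71 (adjusted p = 0.134). With a pseudocount of 0.1 it was 3.53 (adjusted p = 0.119). From ESC to cXENp1 it was 0.02 (95% interval -2.39 to 2.43, adjusted p = 0.997), with 0.0379% of genes and 0 members called and 1555 genes at an unadjusted p under 0.05. Without the KO2.6 ESC library that value was 0.77 (adjusted p = 0.806). These contrasts reuse the libraries of the comparisons at each stage.

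Between KO cXENp3 cells and XEN lines the difference in Pdgfra was -0.04 (95% interval -1.67 to 1.60, adjusted p = 0.99). An interval this wide does not show that the levels are equal. Of the 5 members 0 were called there, beside 4.12% of genes, with 2740 genes at an unadjusted p under 0.05. Ordered by mean, Pdgfra ran from Zfp281-present ESC through Zfp281-present cXENp3, Zfp281-present cXENp1, KO ESC, KO cXENp1 and KO cXENp3 to XEN. Neighbours in this order were further apart than the pooled SD of 0.907 (log2) only from KO ESC to KO cXENp1 and from there to KO cXENp3.

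**Figure D2:**
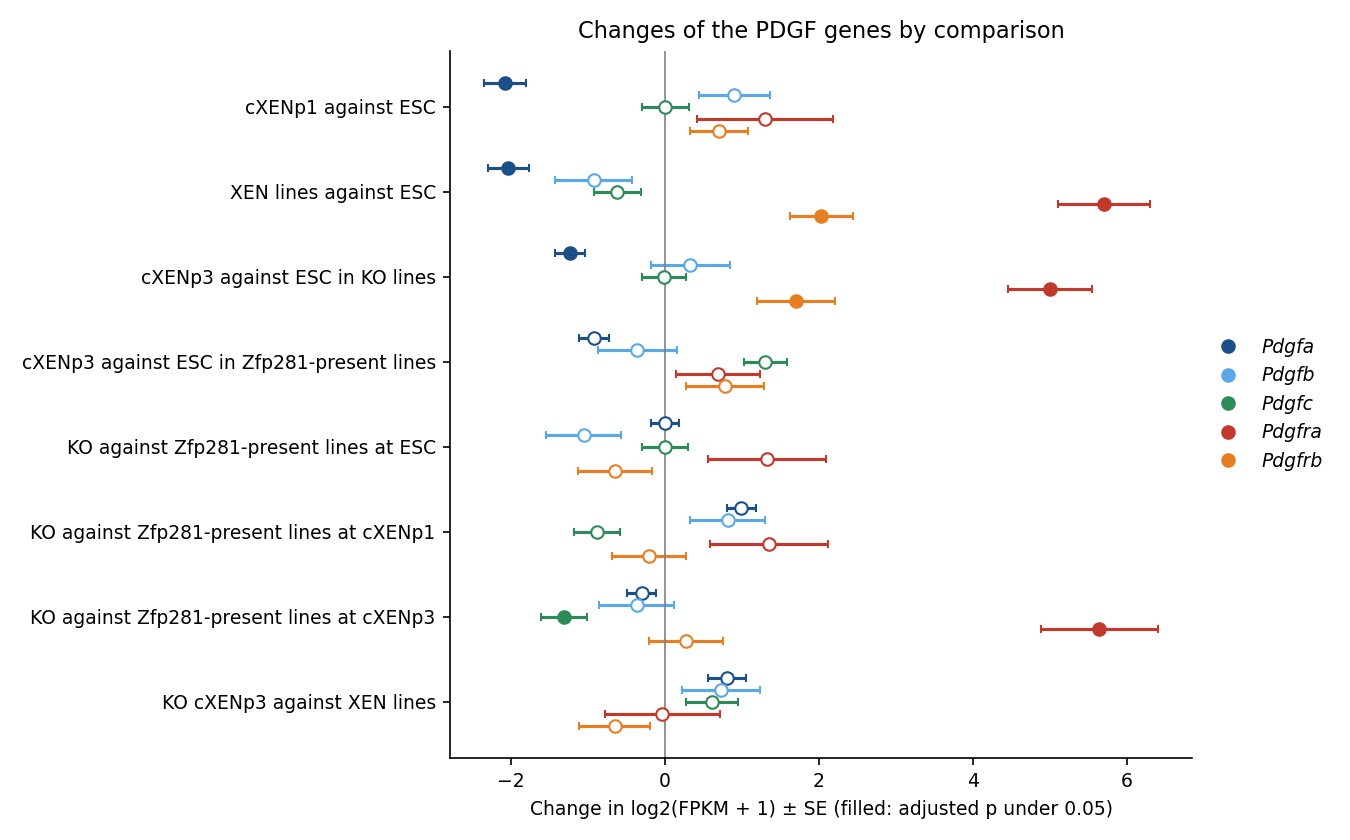
Change of each PDGF gene in log2(FPKM + 1) in 8 comparisons, with bars of 1 SE from limma. Filled points have an adjusted p under 0.05. Pdgfra lies beyond 5 in the XEN, KO cXENp3 and KO against Zfp281-present cXENp3 comparisons, and near 0 between KO cXENp3 and XEN lines.

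Several markers of primitive endoderm moved with Pdgfra. Gata4, Gata6 and Sox17, transcription factors of that lineage, were at 323 and 410, 141 and 212, and 106 and 183 FPKM in the KO cXENp3 libraries. In the KO2.6 cXENp1 library, where Pdgfra was highest at that stage, the 14 markers summed to 1102 FPKM against 172 to 244 in the other 3. Lamc1 gave 317 FPKM of that sum. Not all of the 14 followed Pdgfra. Foxa2 at cXENp1 was highest in Rescue3.34, at 23.7 FPKM, where Pdgfra was lowest. Ttr was at 5.72 and 9.51 FPKM in Zfp281-present cXENp1 and at 0.28 and 0.88 in KO cXENp3. Cubn was at 113 FPKM in KO2.6 cXENp1 and at 12.2 and 23.5 in KO cXENp3. Over the 14 libraries Pearson's r of log2(FPKM + 1) between Pdgfra and Gata4 was 0.98, and it was 0.963 with Gata6 and 0.973 with Sox17. These r values describe libraries that share lines and stages. Among fibroblast markers, r was 0.705 with Col1a1 and 0.555 with Col3a1. The fibroblast list summed to 521 and 697 FPKM in KO cXENp3 against 55.2 in WT3 cXENp3 and 1426 in Rescue3.34 cXENp3. Of its 15 tested genes, 4 were higher and 0 lower in KO lines at cXENp3, beside 41.9% of all genes called. Of 8 markers of mesendoderm and early mesoderm, a further source of Pdgfra in embryos, 4 could be tested. In KO lines at cXENp3, 2 of them were higher and 0 lower, beside the same 41.9% of all genes. The list summed to 5.63 and 12.8 FPKM in KO cXENp3, 5.13 and 7.17 in Zfp281-present cXENp3, 5.4 to 6.6 in ESCs, 5.1 to 8.7 at cXENp1 and 0.7 and 1.7 in XEN lines. Foxf1 was at 1.95 and 5.01 FPKM in KO cXENp3 against 0.107 and 0.867 in the Zfp281-present lines, and Hand1 at 1.65 and 4.25 against 0.195 and 0.284. T stayed at 0.59 FPKM or less, Mixl1 at 0.50 or less and Mesp1 at 0.26 or less in every library. The part of cell composition in the Pdgfra values was not tested.

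Pdgfrb, the receptor that binds PDGF-B, stayed within a narrower range. It spans chr18:61204804-61244721 in mm9 (XLOC_009478). As ESCs, WT3 had 2.58 FPKM, Rescue3.34 1.85, KO3.34 2.07 and KO2.6 0.344, the lowest of all libraries. The cXENp1 libraries had 3.61, 3.33, 2.71 and 3.02 FPKM in the same order. By cXENp3, WT3 stood at 2.39 FPKM, Rescue3.34 at 7.91, KO3.34 at 4.41 and KO2.6 at 7.11, so that both KO values lay between those of the Zfp281-present lines. XENB1 had 10.6 and XEN5 8.39 FPKM, above every other library.

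Pdgfrb was higher in XEN lines than in ESCs by 2.03 ± 0.41 (SE, adjusted p = 0.00583). This was 1.73 (adjusted p = 0.00108) without the KO2.6 ESC library and 1.88 (adjusted p = 0.0624) without XENB1. In the KO lines it rose from ESC to cXENp3 by 1.71 ± 0.51 (SE, adjusted p = 0.0249). That call rested on 1 library: without the KO2.6 ESC library the change was 0.93 (adjusted p = 0.23), and without the whole KO2.6 line 0.82 (adjusted p = 0.346). Keeping every gene with any value above 0 gave an adjusted p of 0.0625. KO and Zfp281-present lines differed by 0.27 at cXENp3 (95% interval -0.80 to 1.34, adjusted p = 0.681). Without the Rescue3.34 cXENp3 library that difference was 0.97 (adjusted p = 0.132). Ordered by mean, Pdgfrb ran from KO ESC through Zfp281-present ESC, KO cXENp1, Zfp281-present cXENp1, Zfp281-present cXENp3 and KO cXENp3 to XEN. Only the first and last steps of that order exceeded the pooled SD of 0.530 (log2).

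The summed level of fibroblast genes moved with Pdgfrb. A list of 18 fibroblast and mesenchyme markers summed to 8.1 to 20.9 FPKM in ESCs, 32.5 to 89.2 at cXENp1, 55.2 in WT3 cXENp3, 521 and 697 in the KO cXENp3 libraries, 892 and 1281 in the XEN lines and 1426 in Rescue3.34 cXENp3. Of the 18, 15 reached 1 FPKM in Rescue3.34 cXENp3, 14 in each KO cXENp3 library, 14 and 15 in the XEN lines and 10 in WT3 cXENp3. Collagen Col3a1 was at 305 FPKM in Rescue3.34 cXENp3 against 20.8 and 30.0 in KO cXENp3 and 27.8 and 35.3 in XEN lines. The proteoglycan Dcn was at 27.9 in Rescue3.34 cXENp3, 1.86 and 3.27 in KO cXENp3 and 5.37 and 6.36 in XEN lines. Col1a1 and Col1a2 were at 509 and 334 FPKM in Rescue3.34 cXENp3 and gave much of its sum. Other genes of the list were lower there than in KO cXENp3. Twist1 was at 5.24 against 11.9 and 16.8 FPKM, and Twist2 at 2.69 against 4.21 and 7.26. Fbln2 was at 38.6 against 92.6 and 112, and S100a4 at 19.0 against 90.3 and 132. Thy1 was at 13.2 and 15.8 FPKM in Zfp281-present ESCs and at 0.94 and 1.51 in these lines at cXENp1. Fap stayed at 0.33 FPKM or less in all libraries, and Meox2 was listed at 0 in Rescue3.34 and KO2.6 cXENp3.

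Pearson's r of Pdgfrb was 0.884 with Col1a1 and 0.816 with Col3a1 over the 14 libraries, again as a description. Of the contractile genes, Acta2 was at 462 FPKM in Rescue3.34 cXENp3, 122 and 130 in KO cXENp3, 14.6 in WT3 cXENp3 and 60.7 and 249 in the XEN lines. Cnn1 was at 27.9 in Rescue3.34 cXENp3 and at 30.5 in XENB1. The pericyte marker Rgs5 stayed at 0.59 or less everywhere. Of 7 endothelial markers 5 were tested, and 2 were higher and 1 lower in KO lines at cXENp3, beside 41.9% of all genes called. Cdh5 was at 16.0 and 45.3 FPKM in KO cXENp3 and Tek at 18.6 and 40.0, against 0.14 or less and 1.42 or less in the Zfp281-present lines, while Pecam1 was at 0.84 and 1.84 against 15.7 and 29.7. The part of feeder or other mesenchymal RNA in the Pdgfrb values was not tested.

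**Figure D3:**
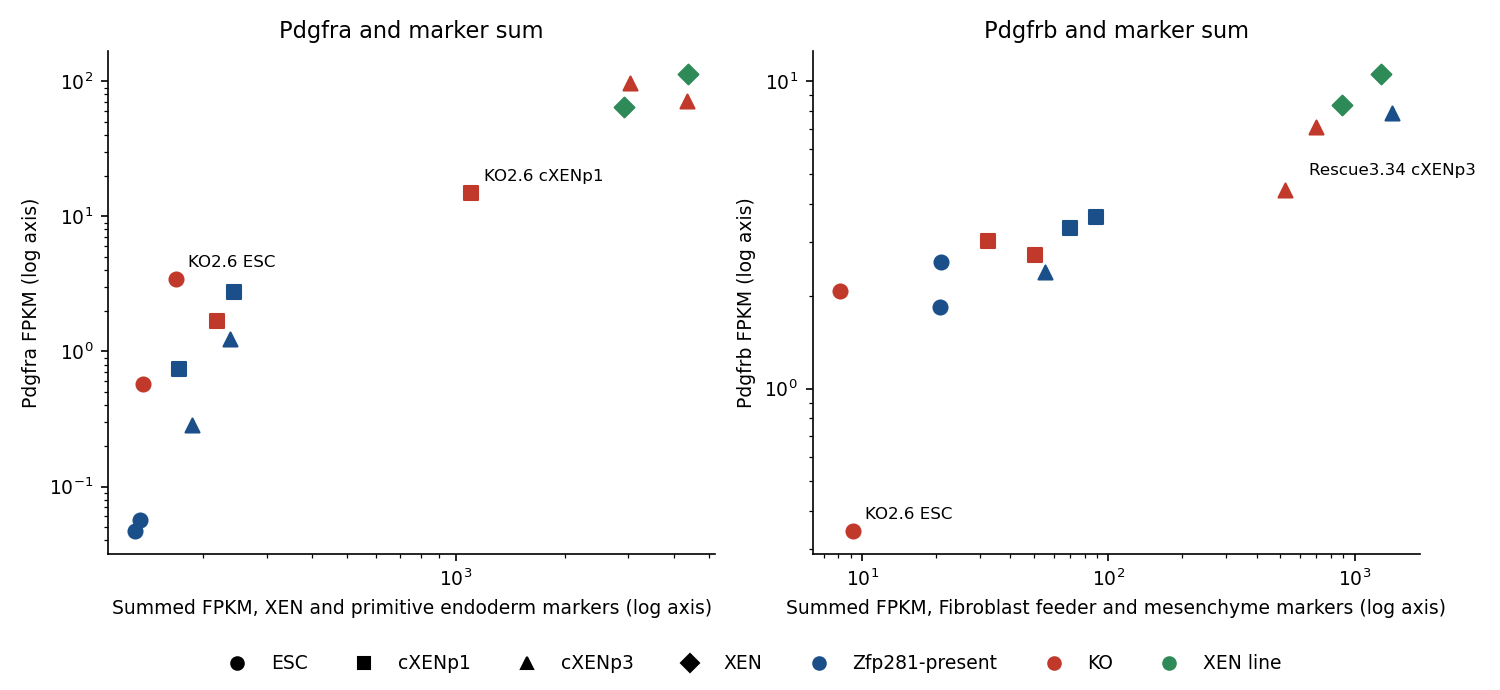
Receptor FPKM against the summed FPKM of a marker list, both on log axes, 1 point per library. Colours give Zfp281 status and shapes give stage. Pdgfra (left) is 64.6 or more where the primitive endoderm sum is 2920 or more, and Pdgfrb (right) is 4.41 or more where the fibroblast sum is 521 or more.

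Pdgfa, the ligand chain made in epiblast, was highest in ESCs, where WT3 had 34.4 FPKM, Rescue3.34 30.8, KO3.34 29.9 and KO2.6 35.6. At cXENp1, WT3 had 4.47 FPKM and Rescue3.34 4.80, while KO3.34 and KO2.6 both had 10.2. At cXENp3, WT3 had 17.8 FPKM, Rescue3.34 15.7, KO3.34 14.01 and KO2.6 12.7, and XENB1 had 9.67 and XEN5 5.32. No library outside the ESC stage reached the ESC range. Both KO libraries were above both Zfp281-present ones at cXENp1 and below them at cXENp3, but neither difference was called at the settings used. The share of all genes whose groups separate in this way was not counted.

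Pdgfa fell by 2.08 on the log2 scale from ESC to cXENp1 (SE 0.27, adjusted p = 0.00107), lower in 4 of 4 lines. The change was -2.09 (adjusted p = 0.00398) without the KO2.6 ESC library. With the prefix of the sample descriptions as a term, which separates 3 of the ESC libraries from the other 11, the change was -2.07 (adjusted p = 0.0627). In XEN lines Pdgfa was lower than in ESCs, at -2.03 ± 0.26 (SE, adjusted p = 0.000755), and at -1.99 (adjusted p = 0.000981) without that library. From ESC to cXENp3 it fell by 1.23 in the KO lines (SE 0.20, adjusted p = 0.00189), and the change was -1.07 without the KO2.6 ESC library (adjusted p = 0.0166). In the Zfp281-present lines the same change was -0.92 ± 0.20 (SE, adjusted p = 0.0745).

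From cXENp1 to cXENp3 Pdgfa rose by 1.65 ± 0.20 (SE) in the Zfp281-present lines (adjusted p = 0.00349), 3.97-fold in WT3 and 3.28-fold in Rescue3.34. This was 1.72 (adjusted p = 0.017) without the Rescue3.34 cXENp3 library. Without the whole WT3 line it was 1.53 (adjusted p = 0.159) and without the whole Rescue3.34 line 1.78 (adjusted p = 0.0559). In the KO lines the change was 0.36 (adjusted p = 0.225), or 1.25-fold in KO2.6 and 1.37-fold in KO3.34. The difference between KO and Zfp281-present lines at cXENp1 was 0.99 ± 0.19 (SE, adjusted p = 0.0549). Across 11 alternative settings its adjusted p ran from 0.0308 to 0.887. At cXENp3 the difference was -0.30 (95% interval -0.72 to 0.11, adjusted p = 0.215), and in ESCs 0.00 (95% interval -0.41 to 0.42, adjusted p = 1). The interaction at cXENp1 was 0.99 (95% interval 0.40 to 1.58, adjusted p = 0.269).

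Ordered by mean, Pdgfa ran from Zfp281-present cXENp1 through XEN, KO cXENp1, KO cXENp3 and Zfp281-present cXENp3 to the 2 ESC groups. Every step exceeded the pooled SD of 0.224 (log2) except that between the ESC groups. Over the 14 libraries Pearson's r was 0.842 with Pou5f1 and 0.836 with Nanog, both factors of the pluripotent state.

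Pdgfb, the chain that binds both receptors, was low throughout. ESCs of WT3 had 3.04 FPKM, of Rescue3.34 4.36, of KO3.34 2.24 and of KO2.6 0.547. In that order of lines, the cXENp1 libraries had 2.41, 5.07, 7.66 and 6.39 FPKM, and the cXENp3 libraries 4.80, 1.27, 1.59 and 2.06. XENB1 had 1.31 and XEN5 0.248 FPKM. Both KO lines were at their highest at cXENp1, where they exceeded both Zfp281-present lines, and at cXENp3 the groups overlapped.

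Pdgfb was called in none of the 12 comparisons at the settings used. Its largest change was the interaction at cXENp1, 1.87 (95% interval 0.33 to 3.41, adjusted p = 0.352). From cXENp1 to cXENp3 it changed by -1.51 ± 0.52 (SE) in the KO lines (adjusted p = 0.0708), to 0.322 of the cXENp1 level in KO2.6 and 0.208 in KO3.34. From ESC to cXENp1 it changed by 0.90 ± 0.47 (SE, adjusted p = 0.169) over the 4 lines. The change was 1.46 (adjusted p = 0.0412) after libraries were rescaled to a common sum, and 0.51 (adjusted p = 0.449) without the KO2.6 ESC library. Against ESCs the XEN lines differed by -0.93 (adjusted p = 0.172), and by -1.28 (adjusted p = 0.0181) without the KO2.6 ESC library. By mean, XEN was lowest and KO cXENp1 highest, and only the step to KO cXENp1 exceeded the pooled SD of 0.582 (log2).

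Pdgfc, the latent ligand chain, differed with Zfp281 status at cXENp3. As ESCs, WT3 had 5.52 FPKM, KO3.34 5.23, KO2.6 4.29 and Rescue3.34 4.05. At cXENp1, WT3 had 7.10 FPKM, Rescue3.34 6.54, KO3.34 4.39 and KO2.6 2.36. At cXENp3, WT3 reached 15.9 FPKM and Rescue3.34 10.9, with KO2.6 at 5.46 and KO3.34 at 4.05. The groups overlapped as ESCs, and the Zfp281-present lines were higher at both later stages, where only the cXENp3 difference was called. XENB1 had 3.99 and XEN5 1.81 FPKM.

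At cXENp3 Pdgfc was lower in KO than in Zfp281-present lines, at -1.31 ± 0.30 (SE, adjusted p = 0.00721). Without the Rescue3.34 cXENp3 library this was -1.57 (adjusted p = 0.0097), and without the whole WT3 line -1.06 (adjusted p = 0.155). At cXENp1 it was -0.88 (adjusted p = 0.292). The interaction from ESC to cXENp3 was -1.31 ± 0.42 (SE, adjusted p = 0.0501). With line as a replicate block, which pairs the stages of a line, its adjusted p was 0.0492, and over 14 alternatives it ran from 0.0221 to 0.305. Within the Zfp281-present lines Pdgfc changed by 1.31 ± 0.28 (SE, adjusted p = 0.0804) from ESC to cXENp3, 2.88-fold in WT3 and 2.70-fold in Rescue3.34. KO2.6 cXENp3 cells had 1.27 times the ESC level and KO3.34 cells 0.774 times. By mean Pdgfc ran from XEN through KO cXENp1, KO cXENp3, both ESC groups and Zfp281-present cXENp1 to Zfp281-present cXENp3. The steps to KO cXENp3, to Zfp281-present cXENp1 and to Zfp281-present cXENp3 exceeded the pooled SD of 0.352 (log2).

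The mixture of ligands and receptors shifted accordingly. Pdgfa made up 78.6% to 88.1% of the summed FPKM of the 3 ligands in ESCs. Its share at cXENp1 was 29.3% and 32.0% in the Zfp281-present lines, where Pdgfc held 39.8% and 50.8%, and 45.9% and 53.8% in the KO lines. At cXENp3 it was 46.2% and 56.4% in the Zfp281-present lines and 62.9% and 71.3% in the KO lines, and 64.6% and 72.1% in XEN lines. Pdgfra made up 1.78% and 2.95% of the summed receptor FPKM in Zfp281-present ESCs, 90.9% in KO2.6 ESCs and 21.7% in KO3.34 ESCs. It made up 93.2% and 94.2% in KO cXENp3, 10.6% and 13.5% in Zfp281-present cXENp3, and 85.9% and 93.1% in XEN lines.

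The ratio of summed ligand to summed receptor FPKM was 10.8 to 20.6 in ESCs. At cXENp1 it ran from 1.06 in KO2.6 to 5.06 in KO3.34. Among cXENp3 cells WT3 had 14.4, Rescue3.34 3.05, KO3.34 0.258 and KO2.6 0.193, and the XEN lines had 0.0602 and 0.199. The ESC, cXENp1 and Zfp281-present cXENp3 libraries thus held more ligand than receptor transcript, and KO cXENp3 and XEN cells the reverse. Pdgfd is not part of the ligand sums. These shares follow from the levels above and were given no test.

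**Figure D4:**
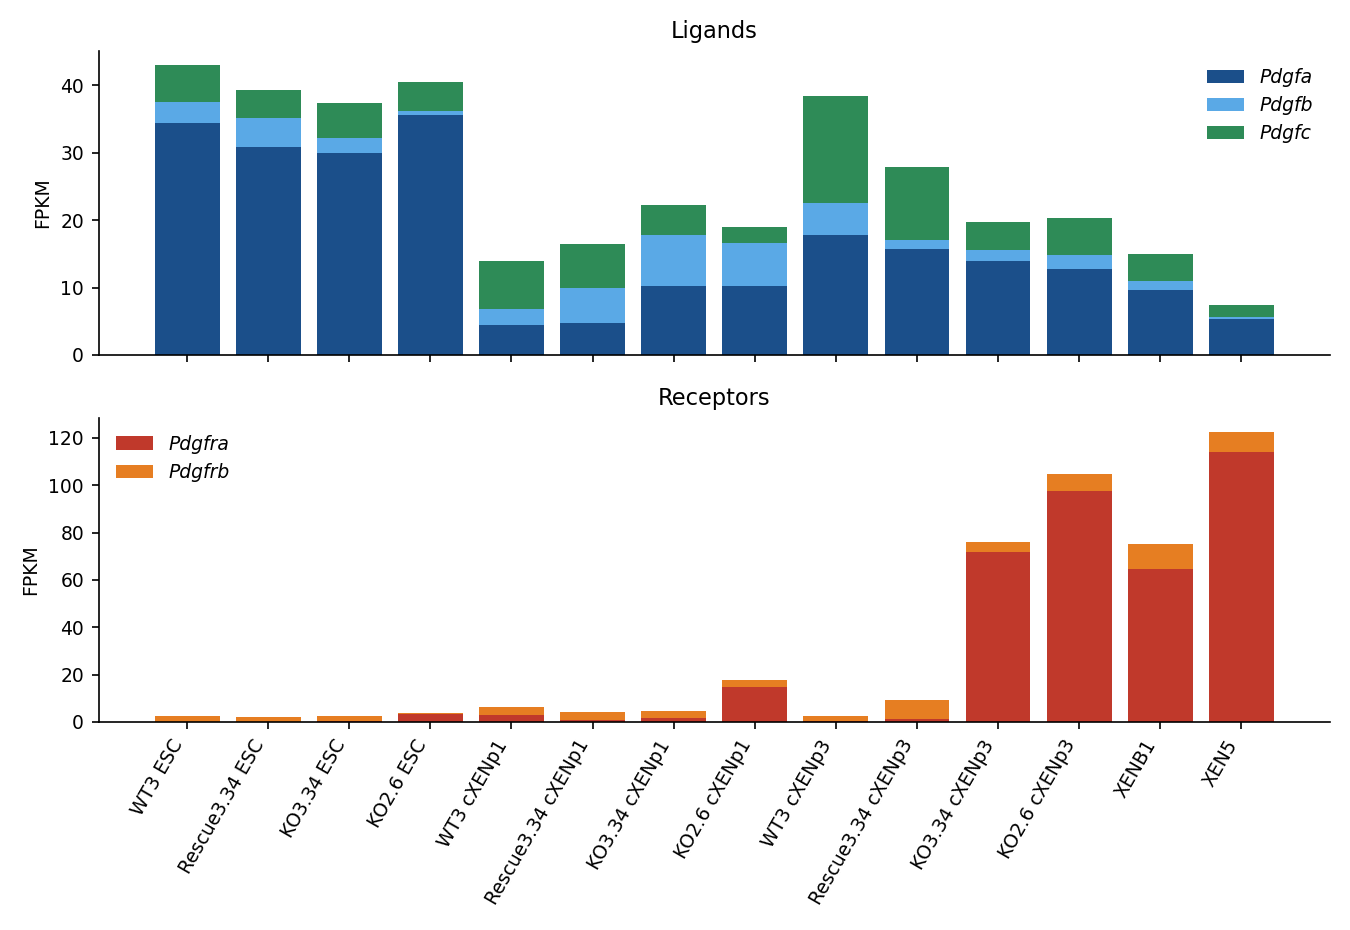
Summed FPKM of the ligand and receptor genes in the 14 libraries, split by gene. Ligand transcripts are in excess in ESCs (ratios from 10.8 to 20.6) and receptor transcripts, nearly all Pdgfra, in KO cXENp3 and XEN libraries (ratios from 0.0602 to 0.258).

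The remaining PDGF genes in the table were Pdgfd, a ligand that acts through PDGFRβ, and Pdgfrl, a receptor-like gene. Pdgfd was at 0.0257 to 0.0365 FPKM in ESCs, 2.49, 2.87, 1.42 and 0.791 at cXENp1 and 0.0659, 1.09, 3.09 and 9.36 at cXENp3 (WT3, Rescue3.34, KO3.34, KO2.6). It was 2.12 ± 0.43 (SE) higher in KO than in Zfp281-present lines at cXENp3 (adjusted p = 0.00409). Pdgfrl was called in neither that comparison nor XEN against ESC.

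Genes that process or bind PDGF were followed as a list of 12, all tested. At cXENp3, 4 were higher and 3 lower in KO than in Zfp281-present lines, with a median of 0.74 over the list beside 0.01 over all genes. Between XEN lines and ESCs, 8 were higher and 1 lower, with a median of 2.01 beside -0.02. From ESC to cXENp1, 4 rose and 2 fell, with a median of 0.52 beside 0.00. Over all genes, 41.9% were called in each of the first 2 comparisons and 28.5% in the last. Without the Rescue3.34 cXENp3 library the cXENp3 counts were 7 higher and 2 lower, beside 37.9% of all genes. Without the KO2.6 ESC library they were 8 and 2 for XEN against ESC and 3 and 1 for cXENp1 against ESC, beside 50.8% and 21.8% of genes.

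Plat, tissue plasminogen activator, which cuts PDGF-C, was at 0.21 to 0.86 FPKM in ESCs and 16.2 to 64.0 at cXENp1. Among cXENp3 cells WT3 had 1.62, Rescue3.34 22.8, KO3.34 143 and KO2.6 142, and XENB1 had 128 and XEN5 164. It was 4.18 ± 0.83 (SE) higher in KO at cXENp3 (adjusted p = 0.00382), and 5.78 higher without the Rescue3.34 cXENp3 library. Furin, a convertase that cuts the PDGF-A and PDGF-B precursors, was at 34.6 and 71.3 FPKM in KO cXENp3 against 9.09 and 10.7 in the Zfp281-present lines, a difference of 2.22 ± 0.33 (SE, adjusted p = 0.000995). Plaur, the urokinase receptor, was 3.97 higher in KO at that stage. A2m, a secreted protease inhibitor that binds PDGF, was lower, at -3.71, as was the convertase Pcsk6, at -1.78. A2m was at 0.09 and 0.12 FPKM in KO cXENp3 and at 10.2 and 17.7 in the Zfp281-present lines. It was also low in KO ESCs, at 2.33 and 0.08 against 12.9 and 12.5.

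**Figure D5:**
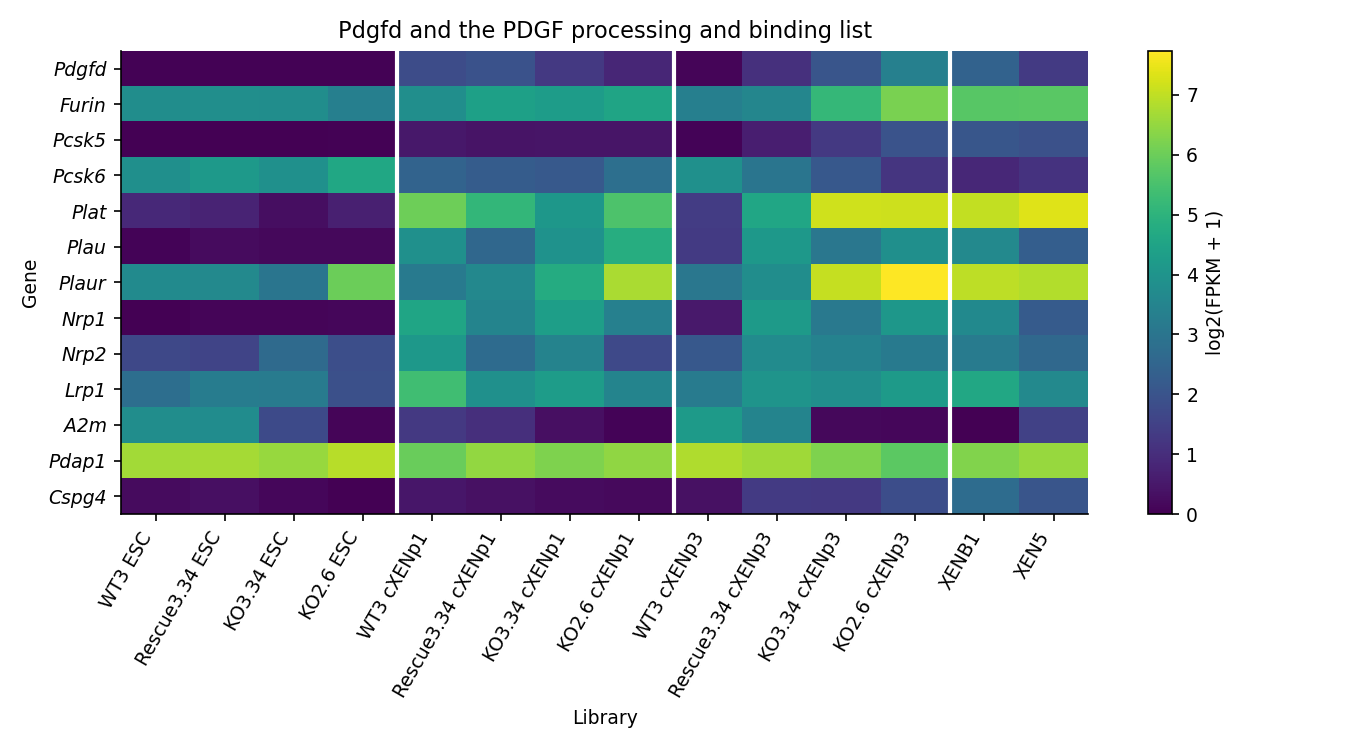
Level of Pdgfd and the 12 PDGF processing and binding genes in the 14 libraries, as log2(FPKM + 1) in colour. Plat, Plaur and Furin are high in KO cXENp3 and XEN libraries, and A2m is high in ESC and cXENp3 libraries of WT3 and Rescue3.34.

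Of 36 genes of receptor-proximal signalling, 35 were in the table and tested. At cXENp3, 9 were higher and 1 lower in KO than in Zfp281-present lines, with a median of 0.33 beside 0.01 over all genes. Akt1, a kinase downstream of PI3 kinase, was 2.02 higher, the catalytic subunit Pik3cb 1.61 and the regulatory subunit Pik3r1 1.26, while the kinase Fyn was lower, at -0.90. Between XEN lines and ESCs 9 were higher and 2 lower, with a median of 0.14 beside -0.02. From ESC to cXENp1, 7 rose and 3 fell, with a median of 0.28 beside 0.00. Rescaling libraries to a common sum shifted the median of all genes at that step to 0.46 and made these counts 23 and 2, and quantile normalization made the cXENp3 counts 5 and 1. Without the Rescue3.34 cXENp3 library the cXENp3 counts were 6 and 0, and Fyn did not pass (adjusted p = 0.0766). Leaving out the KO2.6 ESC library turned the balance at cXENp1 to 2 higher and 4 lower, and gave 9 and 3 for XEN against ESC. Sos2, an exchange factor for RAS, rose by 1.64 from ESC to cXENp1 over all 4 lines. Socs3, a feedback inhibitor that LIF induces, fell by 4.11 at the same step.

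Of 23 immediate early and growth factor response genes, 21 were tested. At cXENp3, 8 were higher and 2 lower in KO, with a median of 0.82 beside 0.01. Cyr61, a matrix protein gene, was 3.90 higher, the transcription factor gene Jun 3.06 and the chemokine gene Ccl2 2.62, and the receptor kinase inhibitor Spry1 was lower, at -1.56. Between XEN lines and ESCs 11 were higher and 3 lower. From ESC to cXENp1, 6 rose and 2 fell, with Cyr61 up by 4.63 and Jun by 3.68, and the feedback inhibitors Spry4 at -4.11 and Spry2 at -2.78. The cXENp3 counts were 10 and 1 without the Rescue3.34 cXENp3 library. Without the KO2.6 ESC library they were 13 and 3 for XEN against ESC and 7 and 2 for cXENp1. Many stimuli other than PDGF act on these genes. The shares called in both lists can be read against 41.9% of all genes at cXENp3 and in XEN against ESC, and 28.5% at cXENp1.

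The genes whose pattern was most like each member were taken as those with the highest Pearson's r of log2(FPKM + 1) over the 14 libraries, among 11168 genes. For Pdgfra they were Osbp (0.992), Dram1 (0.991) and Klb (0.989). For Pdgfrb they were Prnp (0.955), Col5a1 (0.941) and Col6a2 (0.935). Col5a1 and Col6a2 are also on the fibroblast list. For Pdgfa they included Aars (0.982) and Ass1 (0.956). For Pdgfc they were Zic2 (0.907), Bcl11a (0.872) and Zmynd8 (0.853), and for Pdgfb Samd10 (0.888), Sh2d3c (0.872) and Numa1 (0.87). The libraries share lines and stages, so these values rank likeness only.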

How the data were processed

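The authors deposited 1 table of gene values, taken here as FPKM because they are neither whole nor negative and their sums differ. STAR 2.5.3, Cufflinks 2.1.1 and mm9 are named in the submitters' processing notes, with no role given. Reads were paired, 150 bp, per the labels' protocols. Start coordinates were shifted by 1 to count from 1. An exact 0 can be a failed estimate, as for Lamc1 in KO cXENp3 and XEN libraries, and no member was listed at 0. A symbol repeats in 259 rows.

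Changes were fitted with limma 3.58.1 (R 4.3.3, eBayes with trend) on log2(FPKM + 1), for genes at 1 FPKM or more in at least 2 fitted libraries (13191 genes, 12372 for XEN against ESC, 13386 for KO cXENp3 against XEN). P-values were adjusted over all these genes by Benjamini-Hochberg. Stage comparisons had line as a block. KO comparisons and interactions used 6 groups of 2 without it. XEN against ESC used 6 libraries, and KO cXENp3 against XEN 7 groups. The labels pair stages by cell line: same-line deviations correlated at a median of 0.221 over 12 pairs (0.034 to 0.397). The code was tested on simulated data.

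The members and gene lists were chosen with earlier results of these data known. Named were the members, up to 3 called genes in each direction per pathway list, and fixed defining markers other than Tagln and Des. The 3 genes most like each member, among genes reaching 5 FPKM, were named as well. For Pdgfa, 1 of these 3 is not reported here. A2m in ESCs, Pdgfd, and the values of Lamc1, Fap, Meox2 and further list genes were chosen for naming after their values were seen. Alternatives were a pseudocount of 0.1, other filters (any value, mean of 5 FPKM), rescaling, quantile normalization, eBayes without trend, the block, the description prefix and lines left out. Leaving out the KO2.6 ESC or Rescue3.34 cXENp3 library was added after seeing the data. Promoters are from RefSeq, GRCm38.p6, and no coordinates were converted.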

Additional observations from a re-analysis of the deposited data

Results flagged for a closer look

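The change of Pdgfra from ESC to cXENp3 differed between KO and Zfp281-present lines, by 4.32 on the log2 scale in the test of the interaction (adjusted p = 0.0217). KO3.34 and KO2.6 went up by 5.53 and 4.48, and WT3 and Rescue3.34 by 0.30 and 1.08. In FPKM these rises were 125-fold, 28.6-fold, 6.08-fold and 21.9-fold, in the same order of lines. Without the WT3 line the interaction was 3.93 (adjusted p = 0.215), and without Rescue3.34 it was 4.71 (adjusted p = 0.134). No library stood apart from the other 3 of its stage for any member by Dixon's criterion on the log2 scale. The values of a stage mix KO and Zfp281-present lines, so this criterion can miss a library that stands apart. It did not mark Pdgfrb in KO2.6 ESCs, at 0.344 FPKM against 1.85 to 2.58, on which a call rested.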

How the results depend on the processing

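Depth is unknown, so the precision of low values, such as Pdgfra in ESCs, cannot be stated. No called change of a member turned its sign in any alternative run. The KO difference of Pdgfra at cXENp3 (5.25 to 6.87), the changes of Pdgfra and Pdgfa in KO cXENp3 against ESC, and both in XEN against ESC passed under all alternatives run. The description prefix was not run as a term for KO cXENp3 against ESC or XEN against ESC. All cXENp3 and XEN libraries carry a prefix that only KO2.6 shares among the ESC libraries. Of 563 alternatives of uncalled changes, 41 had the other sign and 22 passed.

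The number of members called moved as follows. Rescaling gave 2 for cXENp1 against ESC and 1 (Pdgfa) for KO cXENp3 against XEN, and the description prefix gave 0 for cXENp1 against ESC. Without the replicate block, cXENp3 against ESC in Zfp281-present lines gave 1 (Pdgfa, adjusted p = 0.0465). Any value above 0, quantile normalization and the description prefix each gave 1 (Pdgfa) for KO against Zfp281-present lines at cXENp1. For the interaction at cXENp3, a pseudocount of 0.1 gave 0, and quantile normalization, eBayes without trend, line as replicate block and leaving out the Rescue3.34 cXENp3 library each gave 2, with Pdgfc added. The block changed no other call.

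Leaving out 1 line at a time gave 0 to 2 members for cXENp3 against cXENp1 in KO lines, in Zfp281-present lines, and for KO against Zfp281-present lines at cXENp1. It gave 0 to 1 for cXENp3 against ESC in Zfp281-present lines, KO against Zfp281-present lines at ESC, the interaction at cXENp3 and KO cXENp3 against XEN. It gave 1 to 2 for the KO difference at cXENp3, 2 to 3 for cXENp3 against ESC in KO lines and 2 to 4 for XEN against ESC. Where a group was left with 1 library, that library was assumed to vary like the other groups. Over all alternatives, the number of genes called out of all tested ran from 439 to 5190 for cXENp1 against ESC (3760 as reported). In KO lines it ran from 1268 to 3449 for cXENp3 against cXENp1 (2972) and from 3536 to 6633 against ESC (6365), and in Zfp281-present lines from 72 to 2068 (1388) and from 0 to 339 (151). For the KO difference it ran from 1 to 1993 in ESCs (260), from 4 to 638 at cXENp1 (64) and from 1057 to 6150 at cXENp3 (5528). The interactions ran from 1 to 52 at cXENp1 (5) and from 1 to 4300 at cXENp3 (2975), XEN against ESC from 2098 to 6235 (5181), and KO cXENp3 against XEN from 87 to 881 (551). Rescaling changed 1934 higher and 1826 lower genes at cXENp1 to 4387 and 803. The cause was not tested.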

Other observations

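Receptor kinases and ligands related to the PDGF family were followed as a list of 14 VEGF family, KIT and CSF1 receptor genes, 12 of them tested. At cXENp3, 6 were higher and 1 lower in KO than in Zfp281-present lines, beside 41.9% of all genes called, and without the Rescue3.34 cXENp3 library the counts were 4 and 1. Flt1, a VEGF receptor, was at 32.6 and 36.7 FPKM in KO cXENp3 and 0.55 and 0.64 in the Zfp281-present lines, a difference of 4.48 ± 0.36 (SE, adjusted p = 6.65e-05), and at 35.8 and 54.4 in XEN lines. Csf1, the ligand of the CSF1 receptor, was 2.51 higher and Kitl, the ligand of KIT, 2.82 higher. Kit itself was at 114 and 119 FPKM in KO cXENp3 and 30.8 and 41.5 in the Zfp281-present lines, a difference of 1.68 with an adjusted p of 0.0716, while from ESC to cXENp3 it rose by 3.14 in the KO lines, or by 1.74 (adjusted p = 0.0108) without the KO2.6 ESC library. KO2.6 ESCs had Kit at 3.96 FPKM against 34.9 to 53.6 in the other ESC libraries.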
